A study of Homo sapiens with 3 samples.

Results

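Binding of HA-tagged TFE3 was examined at 6 genes of the inflammatory and NF-kB response, namely IL6, CXCL8, CXCL1, CCL2, NFKBIA and TNFAIP3. Each gene was represented by its span on the hg19 genome with 5 kb added on each side, and every binding summit inside that window was taken. A summit is the single base that the authors listed for a bound place, with a score of their own on an unstated scale. The 6 windows covered 98 kb and held 16 of the 62287 summits of replicate 1 and 16 of the 72647 summits of replicate 2. A summit counted as shared when it and a summit of the other list were each other's nearest and lay at most 100 bp apart, and 11 of the 47396 shared summits fell in the windows.

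The data came from chromatin immunoprecipitation and sequencing in HK-2, an established human kidney proximal tubule cell line, engineered to make HA-TFE3 when doxycycline is given. All 3 samples, 2 HA-TFE3 ChIP libraries and 1 input DNA library, carry this transgene, and chromatin was pulled down through the HA tag, so endogenous TFE3 was not measured. The protocol describes 24 h of culture either with doxycycline at 0.2 µg/ml or without it, and the labels do not tell which condition a library had or whether the line is a single clone. The input library was not analysed here, and nothing states that the ChIP libraries came from separate cultures, so their spread may be technical. The lists hold no read counts, so depth is unknown, and the absence of a summit from a list does not show the absence of binding.

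NF-kB is a family of transcription factors held in the cytoplasm by IkB proteins and released when cells meet cytokines, microbial products or injury. It then switches on cytokines and chemokines, and also genes that shut the response down again. TFE3, a transcription factor of the MiT/TFE family, is best known for its lysosomal and autophagy gene targets, and it and its relative TFEB are also known to take part in cytokine gene transcription in macrophages. Among the 6 genes, IL6 encodes the cytokine interleukin-6, CXCL8 and CXCL1 encode chemokines that draw neutrophils, and CCL2 encodes a chemokine that draws monocytes. NFKBIA encodes IkB-alpha, the inhibitor that retains NF-kB in the cytoplasm, and TNFAIP3 encodes A20, a ubiquitin-editing enzyme that dampens signalling to NF-kB.

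The promoters are shown because summits lay near the start of some of these genes and not of others. They are the 250 bases before the start in RefSeq on GRCh38.p14, read 5′ to 3′ along the gene, for the 5 members matched by symbol in the promoter table. Capitals mark matches to CACGTG, the palindromic E-box that factors of this family are known to bind, to TCANGTG, a longer form with a flanking T, and to GGG followed by any 2 bases and TTTCC, a form of the NF-kB site. Positions are chr6:137867009-137867258 (plus strand) for TNFAIP3, chr14:35404750-35404999 (minus strand) for NFKBIA, chr7:22726950-22727199 (plus strand) for IL6, chr4:73740319-73740568 (plus strand) for CXCL8 and chr4:73869143-73869392 (plus strand) for CXCL1.
TNFAIP3: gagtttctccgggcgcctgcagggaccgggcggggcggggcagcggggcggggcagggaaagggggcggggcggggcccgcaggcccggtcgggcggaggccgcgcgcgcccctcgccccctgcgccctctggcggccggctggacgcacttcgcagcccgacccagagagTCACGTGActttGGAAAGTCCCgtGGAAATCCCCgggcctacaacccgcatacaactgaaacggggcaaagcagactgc
NFKBIA: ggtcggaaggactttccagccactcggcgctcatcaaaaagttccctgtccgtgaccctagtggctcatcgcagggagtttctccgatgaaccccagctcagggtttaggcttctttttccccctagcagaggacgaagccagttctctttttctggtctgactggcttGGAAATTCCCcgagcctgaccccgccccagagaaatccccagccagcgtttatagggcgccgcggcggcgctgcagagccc
IL6: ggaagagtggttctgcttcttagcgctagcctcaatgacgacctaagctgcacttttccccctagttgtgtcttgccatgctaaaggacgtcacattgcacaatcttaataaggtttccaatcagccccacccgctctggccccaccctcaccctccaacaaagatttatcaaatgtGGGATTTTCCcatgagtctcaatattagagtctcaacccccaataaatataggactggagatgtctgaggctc
CXCL8: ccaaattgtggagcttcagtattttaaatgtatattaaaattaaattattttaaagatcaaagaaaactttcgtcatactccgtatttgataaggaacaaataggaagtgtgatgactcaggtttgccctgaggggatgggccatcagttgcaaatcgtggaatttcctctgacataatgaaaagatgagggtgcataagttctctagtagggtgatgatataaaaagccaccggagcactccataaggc
CXCL1: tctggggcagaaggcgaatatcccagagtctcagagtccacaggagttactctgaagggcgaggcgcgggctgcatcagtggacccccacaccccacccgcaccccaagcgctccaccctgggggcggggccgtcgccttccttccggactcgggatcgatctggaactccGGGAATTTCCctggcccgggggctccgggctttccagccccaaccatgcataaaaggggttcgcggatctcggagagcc

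The TNFAIP3 promoter was the single one of the 5 with CACGTG, whose first base lay at position -78, counted backwards from the gene start. The same bases matched TCANGTG on both strands, since the run reads TCACGTGA from either side. CACGTG was present in 6.34% of the 35116 promoters in the table and TCANGTG in 10.7%. The NF-kB form was found in 4 of the 5 promoters, against 1.73% of the table, with its leftmost printed base at position -73 in IL6, -79 in CXCL1, -81 in NFKBIA and, as 2 matches, -67 and -55 in TNFAIP3. The looser E-box CANNTG, which includes every match to the other E-box forms, occurred in 3 of the 5 (CXCL8, IL6 and TNFAIP3) and in 61.8% of the table. All motifs were searched on both strands, and in NFKBIA and TNFAIP3 the NF-kB form lies on the opposite strand, so that the capitals begin with GGAAA. These promoters stand on another genome build than the summits, so no distance from a match to a summit is given. A match is a description of letters and not a site, and a promoter without a match may still hold a site. CXCL8, for example, has tggaatttcc, which differs from the NF-kB form in its first base.

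A further 28 genes of the NF-kB pathway, among them TNF, IL1B, NFKB1, RELA, ICAM1 and other chemokines, were looked at by promoter letters alone, and 24 were matched. None of the 24 held CACGTG, 2 held TCANGTG (RELA and TRAF1), 14 held CANNTG and 13 held the NF-kB form. Their summits were not analysed here, because no gene annotation on hg19 was used.

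Shared HA-TFE3 summits were present in the windows of 5 of the 6 genes. IL6 had 4, CXCL8, NFKBIA and TNFAIP3 had 2 each, CCL2 had 1 and CXCL1 had 0. Of the 11 shared summits, 9 lay inside a gene span as given here, 1 lay before a span (CCL2) and 1 behind a span (CXCL8). These numbers can change with another start for a gene, and the starts and ends used were in whole kb. The share of all shared summits inside gene spans was not measured, so the 9 have no background beside them. The density was 1.12 shared summits per 10 kb (95% exact Poisson interval 0.560 to 2.01), against 0.156 per 10 kb over chromosomes 1 to 22 and X, a ratio of 7.19. Taken singly, replicate 1 gave a ratio of 7.96 and replicate 2 a ratio of 6.82. The 1 Mb on each side of the windows held 0.248 shared summits per 10 kb, so the ratio to the surroundings was 4.52. The surroundings of CXCL8 and CXCL1 overlap and count in part for both. The genome average includes stretches without genes, and other genes were not measured the same way, so the ratio does not set these genes apart from genes in general.

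The order of the genes was not resolved by counting error. The 95% exact Poisson interval was 1.09 to 10.2 for the 4 shared summits of IL6, 0.242 to 7.22 for the genes with 2, 0.0253 to 5.57 for CCL2 and 0 to 3.69 for CXCL1, and every pair of these intervals overlapped. The intervals cover counting error only, and summits near each other are not independent. The mean number of summits per library was 5.5 ± 0.71 (SD, n = 2) at IL6, 4.0 ± 1.4 at CXCL8, 3.0 ± 1.4 at NFKBIA and 0.50 ± 0.71 at CXCL1. At TNFAIP3 both libraries had 2, and at CCL2 both had 1.

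**Figure D1:**
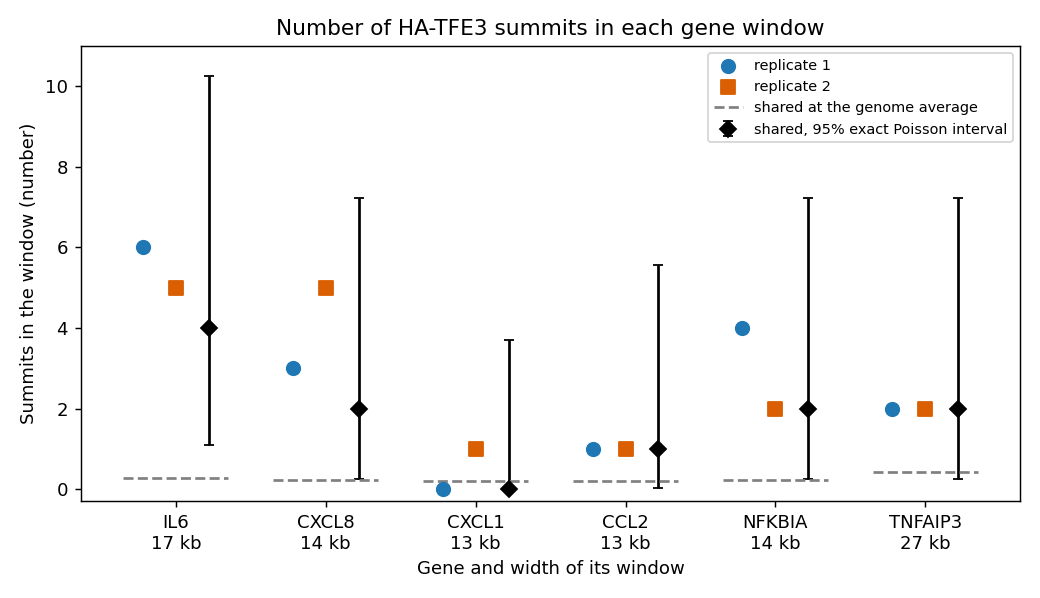
Number of HA-TFE3 summits in each gene window (y axis) by gene (x axis, with the window width): circles for replicate 1, squares for replicate 2, diamonds for shared summits with 95% exact Poisson intervals, and dashed lines for the number of shared summits at the genome average. IL6 has 6 and 5 summits with 4 shared, and the dashed lines lie between 0.203 and 0.421.

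Windows of equal width give the background. When the genome was cut into adjoining tiles of 13, 14, 17 and 27 kb, 14.7%, 15.5%, 18.1% and 25.1% of them held at least 1 shared summit. For CCL2 the relevant tile is 13 kb, for CXCL8 and NFKBIA 14 kb, for IL6 17 kb and for TNFAIP3 27 kb. At least 4 shared summits, the IL6 number, were held by 0.588% of the 17 kb tiles. At least 2 were held by 4.46% of the 14 kb tiles, the width at CXCL8 and NFKBIA, and by 10.02% of the 27 kb tiles, the width at TNFAIP3. The CXCL1 window held none, as did most tiles of its width. The tiles include stretches without genes, and the members were chosen with earlier results of these data known. IL6 is also the member with the most shared summits, so its tile share does not measure how rare it is among genes.

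The cytokine gene IL6 had the most shared summits, and in replicate 2 it and CXCL8 had 5 summits each. Its window is bases 22760001 to 22777000 of chromosome 7, and the gene lies on the plus strand. The start behind the printed IL6 promoter was not placed on hg19 and may lie elsewhere than the start that bounds the span. A group of 3 shared summits lay between 1.16 and 2.01 kb from the latter start. In replicate 1 they were at bases 22766168, 22766601 and 22766927 with scores of 7.67, 12.7 and 9.89, and in replicate 2 at 22766156, 22766536 and 22767006 with scores of 8.38, 12.4 and 10.8. The middle summit was thus the highest of the group in both libraries, and neighbours stood 326 to 470 bp apart. Over the whole genome 4.7% of shared summits had another shared summit within 500 bp, and in the 6 windows these 3 did. The limit of 500 bp was chosen after seeing the data, so this share does not measure how unusual the group is.

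The remaining shared summit of IL6 lay towards the 3′ end, 6.14 kb from the start, at base 22771140 in replicate 1 and 22771119 in replicate 2. It had the highest score of the window in each library, 14.1 and 17.9, which placed it at the 72.1 and 79.8 percentiles of the lists. The percentile is the rank of a score in its own list, with 100 for the highest. Summits found in 1 library were weak here, with scores of 3.70 and 4.54 in replicate 1 (bases 22768262 and 22772513) and 3.33 in replicate 2 (base 22770759). No summit of either library lay in the 5 kb before the IL6 span, which does not exclude summits before a later start of the gene. With a limit of 50 bp between partners, 2 of the 4 IL6 summits still counted as shared.

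**Figure D2:**
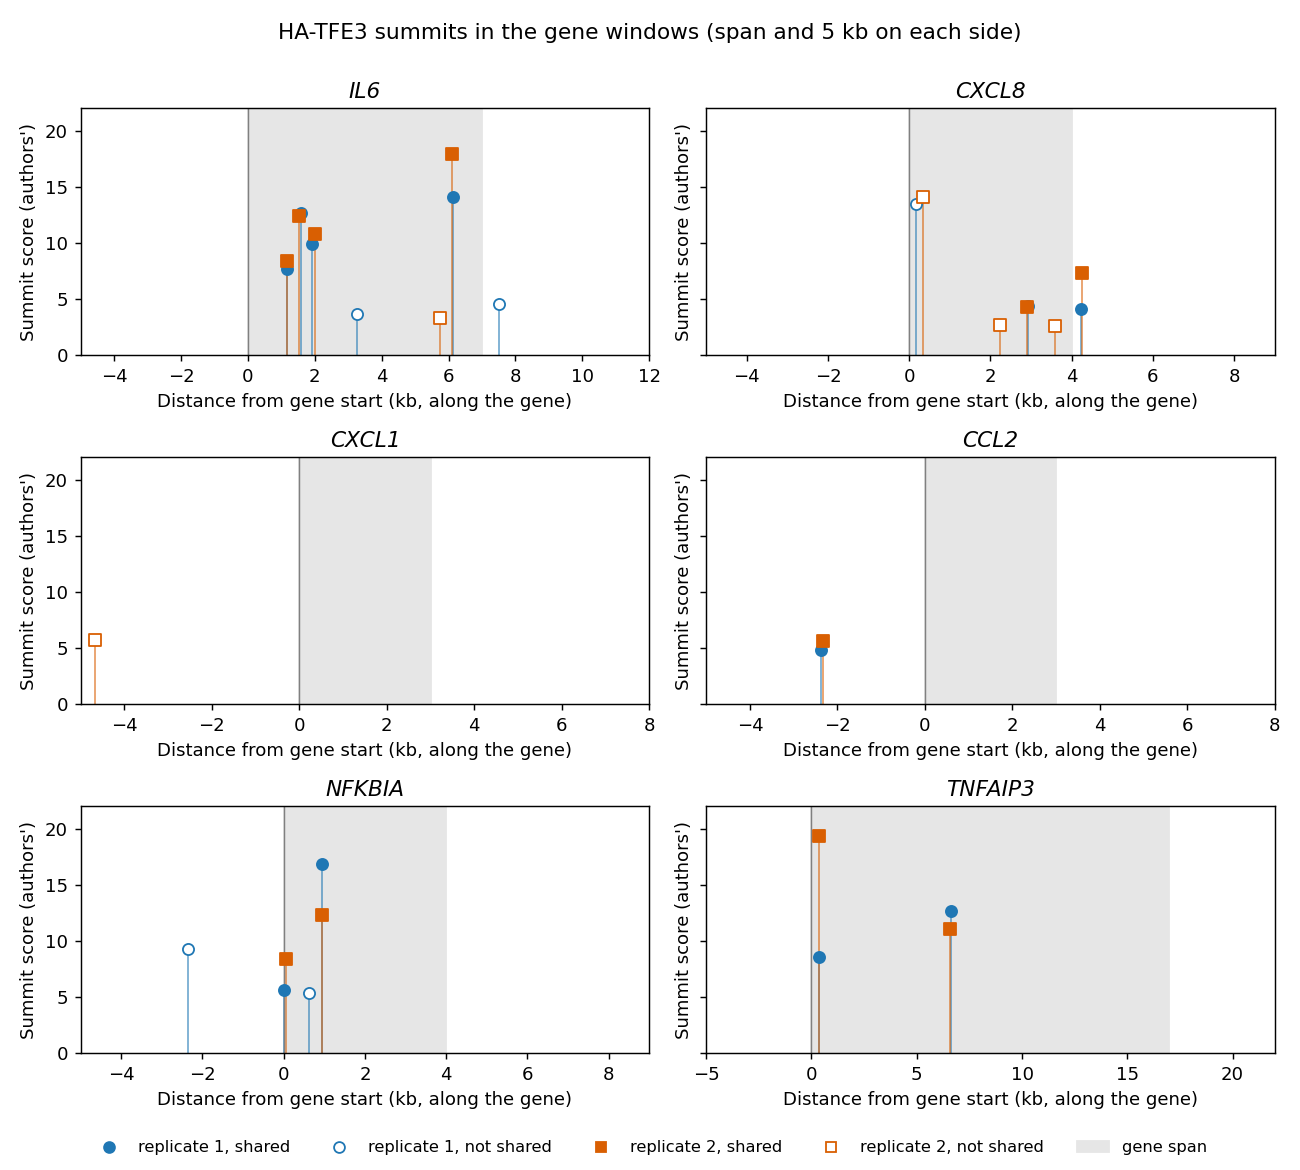
Position and score of every HA-TFE3 summit in the 6 windows: the x axis is the distance from the start of the gene span in kb along the gene, the y axis is the authors' score, circles are replicate 1, squares are replicate 2, filled symbols are shared summits, open symbols are not, and grey marks the gene span. The highest IL6 summits (14.1 and 17.9) sit near the end of the gene, those of CXCL8 (13.4 and 14.1) near its start, and CXCL1 has 1 open symbol.

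The neutrophil chemokine gene CXCL8 had its strongest summit of each library beside the start, but the libraries placed it at different bases. The window is bases 74601001 to 74615000 of chromosome 4, plus strand. Replicate 1 had a summit at base 74606174 with a score of 13.4, and replicate 2 at base 74606327 with a score of 14.1, percentiles 69.9 and 71.7. They were 153 bp apart, beyond the limit of 100 bp, and do not enter the count of shared summits. At limits of 200 and 500 bp they were paired and CXCL8 had 3 shared summits.

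The 2 shared summits of CXCL8 were weaker and lay towards the gene end. The one at base 74608936 in replicate 1 and 74608898 in replicate 2 scored 4.41 and 4.29. The other, at 74610220 and 74610245, lay behind the span and scored 4.14 and 7.34. Replicate 2 added 2 summits of low score inside the gene, 2.66 at base 74608238 and 2.58 at base 74609586. The scores of both shared summits were below the list medians of 8.55 in replicate 1 and 8.38 in replicate 2.

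CXCL1, another neutrophil chemokine gene on the same chromosome, was the member without a shared summit. Its window is bases 74730001 to 74743000 of chromosome 4, plus strand. Replicate 1 had 0 summits in it and replicate 2 had 1, at base 74730321 with a score of 5.74, at the upstream border 4.68 kb before the start. The nearest summit of replicate 1 was 4191 bp away from it. A shared summit just outside the window, at base 74726130 in replicate 1 and 74726091 in replicate 2, scored 4.19 and 5.26, and with 10 kb on each side CXCL1 counted 1 shared summit. In the printed promoters CXCL1 holds the NF-kB form and none of the E-box forms. The same is true of NFKBIA, whose window had 2 shared summits.

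Between the windows of CXCL8 and CXCL1 lie 115 kb, where the RefSeq gene order places the chemokine genes CXCL6 and PF4V1. This stretch had 4 summits in replicate 1, 3 in replicate 2 and 3 shared, or 0.261 shared summits per 10 kb. The strongest, at base 74682763 in replicate 1 and 74682733 in replicate 2, scored 25.7 and 24.9, above every summit inside either window. Which gene it belongs to was not tested.

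CCL2, the monocyte chemokine gene, had 1 summit in each library, and they were paired. Its window is bases 32577001 to 32590000 of chromosome 17, plus strand. The summits lay before the gene, 2.38 kb from the start at base 32579624 in replicate 1 and 2.32 kb at base 32579682 in replicate 2. Their scores of 4.83 and 5.66 put them at the 19.2 and 27.4 percentiles. The partners were 58 bp apart, so with a limit of 50 bp, or with 2 kb in place of 5 kb on each side, CCL2 had 0 shared summits.

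The feedback gene NFKBIA, on the minus strand of chromosome 14 with a window of bases 35865001 to 35879000, had its shared summits at the 5′ end. One lay at base 35873998 in replicate 1 and 35873940 in replicate 2, within 0.060 kb of the start that bounds the span, with scores of 5.65 and 8.38. The stronger one lay 0.95 kb into the gene, at 35873049 and 35873063, with scores of 16.8 and 12.4. The score of 16.8 was the highest of any member summit in replicate 1. Replicate 1 also had summits at bases 35873388 (5.40) and 35876352 (9.26) without a partner, while replicate 2 had no further summit. With a limit of 50 bp the stronger pair was the one that still counted.

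The other feedback gene, TNFAIP3, lies on the plus strand of chromosome 6 and had a window of bases 138183001 to 138210000. Both of its summits were shared, and neither library had another in the 27 kb. The summit near the start was at base 138188367 in replicate 1 and 138188346 in replicate 2, 0.367 and 0.346 kb into the span. Since the start was given in whole kb, the side of it on which this summit lies was not determined. Its score was 8.55 in replicate 1, the median of that list, and 19.4 in replicate 2, the highest of any member summit there. This ratio of 2.27 was the largest among the 11 shared summits. The other summit, 6.61 kb into the gene at 138194610 and 138194564, scored 12.7 and 11.1. Both pairs held at a limit of 50 bp.

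Gene starts and ends were given in whole kb, so distances are good to about 1 kb for the start that bounds the span. For the summits closest to the start at CXCL8, NFKBIA and TNFAIP3, the side of the start is therefore not settled. A gene can have several starts, and from another one, such as that of a printed promoter, distances can differ by more. The printed IL6 promoter was not placed on hg19, so the side of its start on which the IL6 summits lie was not determined. Exons, introns and untranslated regions were not assigned, because no annotation on hg19 was used.

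The scores of the members spread over the lower and upper parts of the lists, up to percentiles of 78.4 in replicate 1 and 82.2 in replicate 2. The mean percentile of the 11 pairs ran from 12.4 at CXCL8 to 75.9 at IL6, with a median of 58.0, against 59.5 over all 47396 shared summits. Of the 11, 5 scored above the list median in both libraries, 3 of them at IL6 and 1 each at NFKBIA and TNFAIP3. Over all shared summits the share was 50.1%. None of the 16 and 16 member summits was among the 10000 highest-scoring of its list, which began at scores of 19.96 in replicate 1 and 22.4 in replicate 2. These cuts stand at the 83.9 and 86.2 percentiles, so most summits of either list also lie below them. Whether the members have fewer summits above the cuts than the lists was not tested. Replicate 2 had the higher score in 7 pairs and replicate 1 in 4. The median ratio of replicate 2 to replicate 1 was 1.09 in the members and 1.13 over all shared summits.

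**Figure D3:**
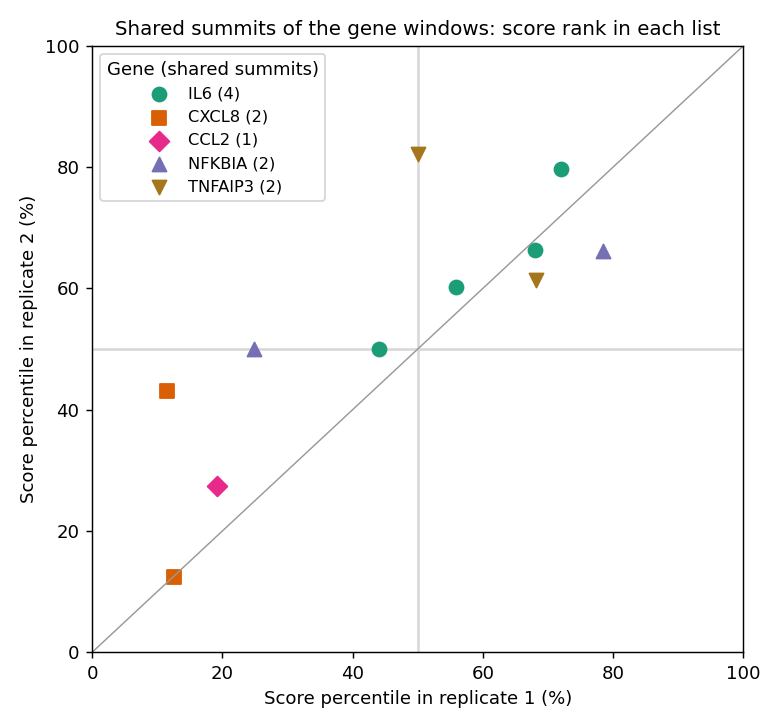
Score percentile of the 11 shared summits in replicate 1 (x axis) and replicate 2 (y axis), with a symbol for each gene, a diagonal for equal rank and grey lines at the middle of each list. IL6 lies near the diagonal, the CXCL8 and CCL2 summits lie below 50 in both libraries, and 1 TNFAIP3 summit stands at 50.1 and 82.2.

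The agreement of the libraries on position was also measured. Partners lay 12 to 79 bp apart with a median of 38 bp, against 26 bp over all shared summits. In each library 11 of 16 member summits had a partner, which is 68.8% (95% exact Clopper-Pearson interval 41.3 to 89.0). Over the whole lists 76.1% of replicate 1 and 65.2% of replicate 2 had one, both inside that interval. Member summits without a partner had a median percentile of 22.95 in replicate 1 and 5.91 in replicate 2, and the CXCL8 summits at the gene start were the highest of them.

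Apart from CCL2, and from CXCL1 whose window held no shared summit to compare, the wider surroundings of the genes held a higher-scoring shared summit than the windows. These surroundings are much longer and hold more shared summits, so a higher maximum there is not a like comparison. With 100 kb on each side, CXCL8 had 17 shared summits, NFKBIA 14, IL6 7, TNFAIP3 6, CXCL1 6 and CCL2 1, where the genome average would give 3.17 to 3.39. The stretches of CXCL8 and CXCL1 overlap and have 2 of these in common. Of the 17 at CXCL8, 13 lay upstream of the gene. By the mean score percentile of both libraries, the highest was 14.1 kb before the start, at base 74591923 in replicate 1 and 74591920 in replicate 2, with scores of 24.8 and 33.7. In replicate 1 alone 3 others scored higher, 29.3 at base 74542939, 27.0 at 74564159 and 25.7 at 74682763.

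At NFKBIA 12 of the 14 lay outside the window. The highest, 63.0 kb from the start in the direction of transcription, scored 27.0 and 34.6. At TNFAIP3 the highest was 55.3 kb upstream with scores of 32.6 and 30.4, and at CXCL1 it was 48.0 kb downstream with 32.0 and 29.8. At IL6 the highest by mean percentile was 73.3 kb upstream with 17.5 and 20.4, while in replicate 1 alone base 22862537, 97.5 kb downstream, scored 17.9. In these 5 loci the shared summit with the highest mean percentile within 100 kb was thus outside the 5 kb window. At CXCL1 this was fixed in advance, since its window held no shared summit.

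Few summits lay around CCL2: the summit 2.38 kb before its start was the single summit of each library in 203 kb. The 1 Mb on each side of its window held 22 shared summits, or 0.110 per 10 kb. This and the 0.135 per 10 kb around TNFAIP3 were below the genome average of 0.156, and the other genes had 0.265 (NFKBIA) to 0.355 (CXCL8 and CXCL1). Distant summits are given by position only, since their target genes were not measured, and other genes lie within these stretches.

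**Figure D4:**
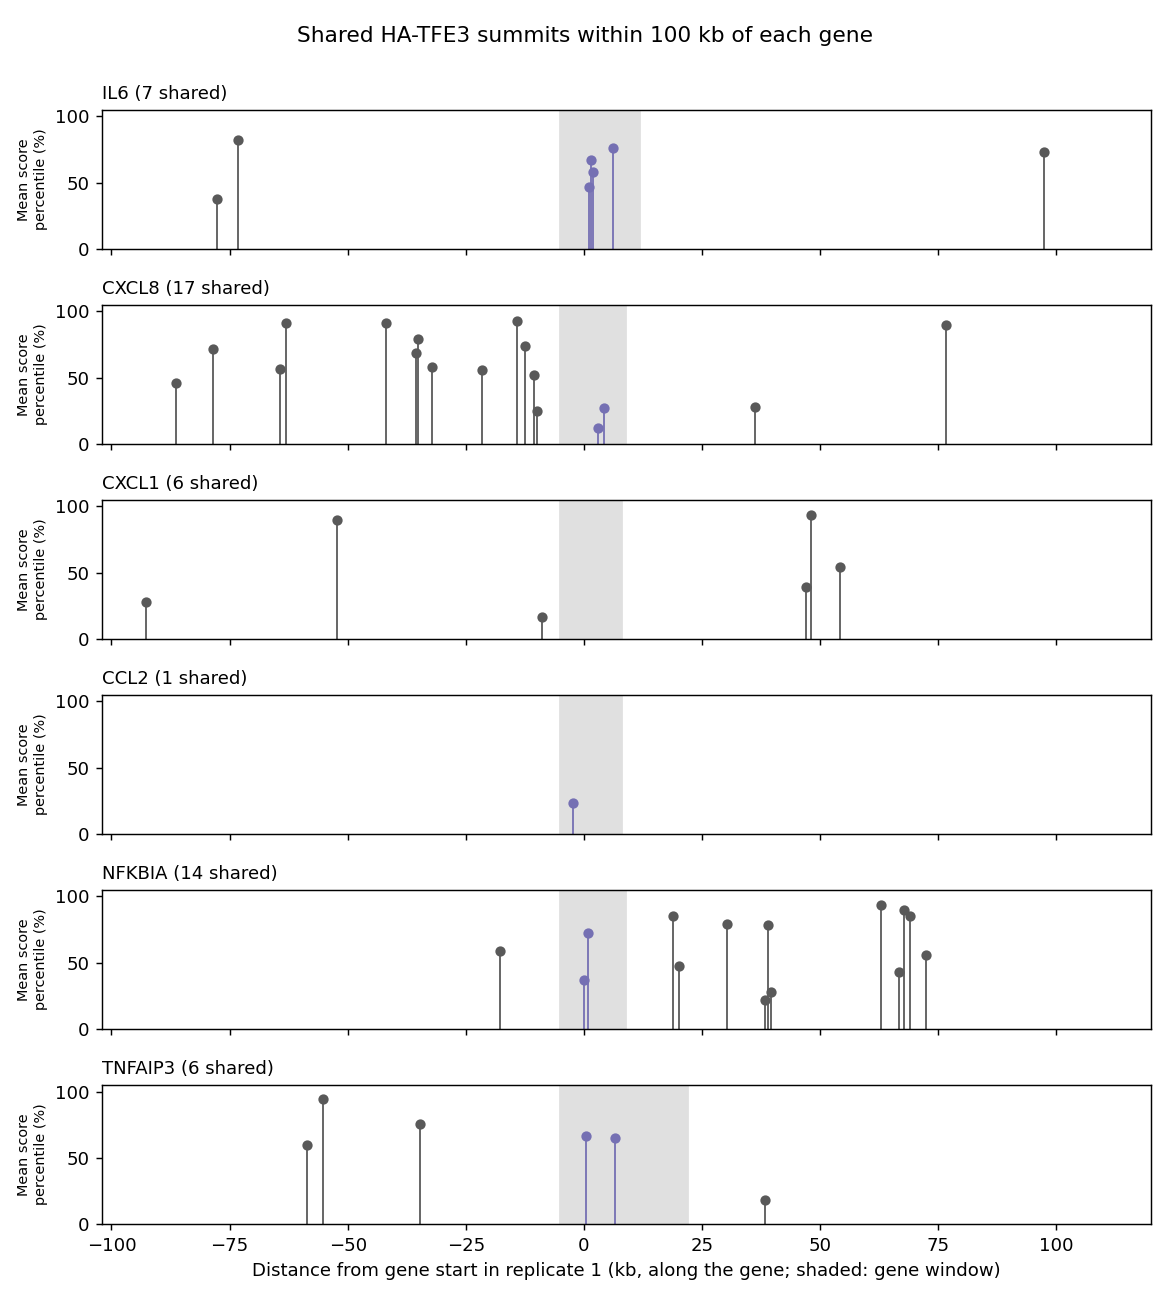
Shared HA-TFE3 summits within 100 kb of each gene span: the x axis is the distance from the gene start in kb along the gene, the y axis is the mean score percentile of both libraries, and shading marks the window with 5 kb on each side. CXCL8 has 13 of 17 summits upstream, most of the 14 at NFKBIA lie downstream, and CCL2 has 1 in all.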

How the data were processed

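The authors deposited, for each of the 2 HA-TFE3 ChIP libraries, a list of 1 bp summits with a score. Per the submitters' processing notes the build is hg19. Not given in the sources used here were the aligner, peak caller, threshold, scale of the score and use of the input. Scores were used to rank summits within a list. Positions were made 1-based and chromosomes 1 to 22 and X kept, leaving out 35 and 45 summits.

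Members, spans and gene lists were chosen with earlier results of these data known. Named genes are the 6 members, with every summit in their windows. The spacing of 500 bp and the 100 kb surroundings were chosen after seeing the data. No test between conditions was possible with 1 group, so counts, shares and exact intervals at 95% are given. Tiles adjoin and have the window's width. Lengths came from GenomeInfoDb 1.38.1 and bands from circlize 0.4.16. Pairing and tiling were tested on simulated data. Alternatives were pairing limits, 1-way pairing, score cuts, flank widths, each library alone and shortened chromosomes. Python 3.11.15, NumPy 2.4.6, pandas 2.3.3, SciPy 1.17.1 and matplotlib 3.10.9 were used.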

Additional observations from a re-analysis of the deposited data

How the results depend on the processing

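The number of shared summits in the 6 windows was 11 and the density ratio to the genome 7.19. With a limit of 50 bp they were 7 and 5.77, above the median score 5 shared summits were counted, and among the 10000 highest-scoring summits both were 0. With 0, 2, 10 and 20 kb on each side the ratio was 15.2, 10.3, 5.27 and 4.38, and 20 kb held 19 shared summits. Against the 1 Mb on each side it was 4.52. The median percentile of 58.0 became 64.8 at 50 bp and at 0 kb, and 61.4 at 200 and 500 bp and at 2 kb. It was 67.1 above the median score and 47.0 at 10 kb. With 1-way pairing it was 50.1, where the percentile is that of replicate 1 alone and not the mean of both libraries. Without replicate 1 or replicate 2, all summits of the other library gave 16 and 16, ratios of 6.82 and 7.96 and median percentiles of 49.99 and 47.1. Without centromere, heterochromatin and stalk bands, 15.7%, 16.7%, 19.4% and 26.9% of tiles of 13, 14, 17 and 27 kb held a shared summit. Of 78 recomputed counts of single genes, 27 moved by over 1.5 times. The 100 kb surroundings among them were added after seeing the data. The causes of these moves were not tested. No paired analysis was possible because there is 1 ChIP group and the replicate numbers pair no samples across groups. The lists give no depth, so weak summits found in 1 library cannot be told from missed ones.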
